A study of Homo sapiens with 18 samples.

Results

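The 7 hormone genes described here across 6 groups of arrays, RLN1, RLN2, EDN1, EDN2, CGA, STC1 and DIO2, make up 7 of 13680 genes that could be tested and of 20041 genes with a named probe. They were chosen by name, from earlier results of these same arrays in which they had changed, and every probe mapped to them was taken. The array carries 9 such probes, and 8 passed a detection filter (above background, detection p under 0.05, on at least 3 of 18 arrays). RLN2 and DIO2 have a pair of probes each, and the other genes have 1. All 7 genes were tested through 1 probe each.

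The series asked how forcing or lowering galectin-4, a sugar-binding lectin encoded by LGALS4, alters the RNA of prostate cancer cells. The established lines 22Rv1 and LNCaP carried the construct named tetO-Gal4 and were labelled as control cells without doxycycline (Dox) and as galectin-4 expressing with Dox. Cells called 22Rv1-M4 carried either a scramble (M4-shCtrl) or a galectin-4 knockdown (M4-shGal4). Each group has 3 arrays of biotin-labelled cRNA made from total RNA. Dox was only given to cells that carry the construct, so an effect of Dox itself cannot be told apart from one of galectin-4. The labels name no dose, time, clone, number of short hairpins or number of cultures behind the replicates, so p-values measure the spread between these arrays, which may be technical.

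Levels are background-corrected, quantile-normalized intensities on a log2 scale, on which a difference of 1 is a 2-fold change. Arrays had mean raw intensities of 306 to 404, with 41.9% to 45.1% of probes above background. KLK3, the prostate-specific antigen, was above background on every LNCaP array and on no array of 22Rv1 or 22Rv1-M4, while 8 to 10 of the 10 prostate luminal markers on the array were above background in every group. Some arrays stood apart from the other pair in their group, by the number of genes at least 2-fold above or below both: 158 genes on LNCaP replicate 3, 96 on 22Rv1 with Dox replicate 3, 79 on M4-shCtrl replicate 3 and 73 on M4-shGal4 replicate 3, against 28 or fewer on the others. In cultured lines measured in bulk, fewer cells making a transcript and less of it per cell cannot be told apart.

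LGALS4 was examined first as a check of the labels. In 22Rv1-M4 it lay at 12.41, 12.46 and 12.46 with the scramble and at 5.32, 4.79 and 4.87 with the knockdown, a fall of 7.45 (adjusted p = 5.17e-16). In LNCaP it was above background on no array without Dox and on all 3 with Dox, at 5.73, 6.79 and 6.96. That was at least 3.41-fold higher (adjusted p = 1.06e-05), but far below M4-shCtrl and overlapping 22Rv1 without Dox. On the arrays labelled 22Rv1 with Dox the LGALS4 probe lay at 5.84, 5.68 and 6.00, against 5.91, 5.96 and 5.84 without Dox, and did not pass the test (log2 difference -0.06 ± 0.21 SE, adjusted p = 0.874). The label of that group is therefore not borne out by this probe, whose place relative to the construct is not known here, and every 22Rv1 difference below is one between arrays labelled with and without Dox.

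Hormones act at a distance through receptors, and their genes are usually tied to particular tissues. Relaxins are peptides of the insulin family that soften connective tissue and act through the receptor RXFP1, which raises cyclic AMP. The prostate is a known source of relaxin in men. Endothelins are short vasoconstrictor peptides, cut from larger precursors by furin and ECE1, that act on the receptors EDNRA and EDNRB. CGA encodes the alpha subunit shared by chorionic gonadotropin, LH, FSH and TSH, each of which needs its own beta subunit, and it is normally made in placenta and pituitary. DIO2 is a selenoenzyme that converts thyroxine to the active thyroid hormone inside cells. STC1 encodes stanniocalcin, a secreted glycoprotein first known from the calcium control of fish, and its RNA is known to rise in cells short of oxygen.

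The comparisons were first set side by side by how many of the 7 genes differed at least 2-fold. At least 2-fold differences (either direction) were found for 1 of 7 genes on the arrays labelled 22Rv1 with Dox, where 4.81% of all genes tested differed that much. For LNCaP with Dox these were 3 of 7 genes, against 2.88% of all genes, and for the knockdown 5 of 7, against 4.25%. For M4-shCtrl against 22Rv1 without Dox they were 3 of 7 (7.37% of all genes), and for LNCaP against 22Rv1, both without Dox, 5 of 7 (18.6%). The Dox differences of LNCaP and 22Rv1 were at least 2-fold apart for 4 of 7 (7.82%). The genes were chosen with the LNCaP Dox and knockdown results known, so those counts are a description and nothing is read from them. The comparisons of untreated lines share arrays with those results and are treated the same way, with a difference and its SE but no p. For the 22Rv1 Dox comparison an adjusted p is given for each gene, but its results were also known when the genes were chosen, so these p-values describe the arrays and are no independent test.

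**Figure D1:**
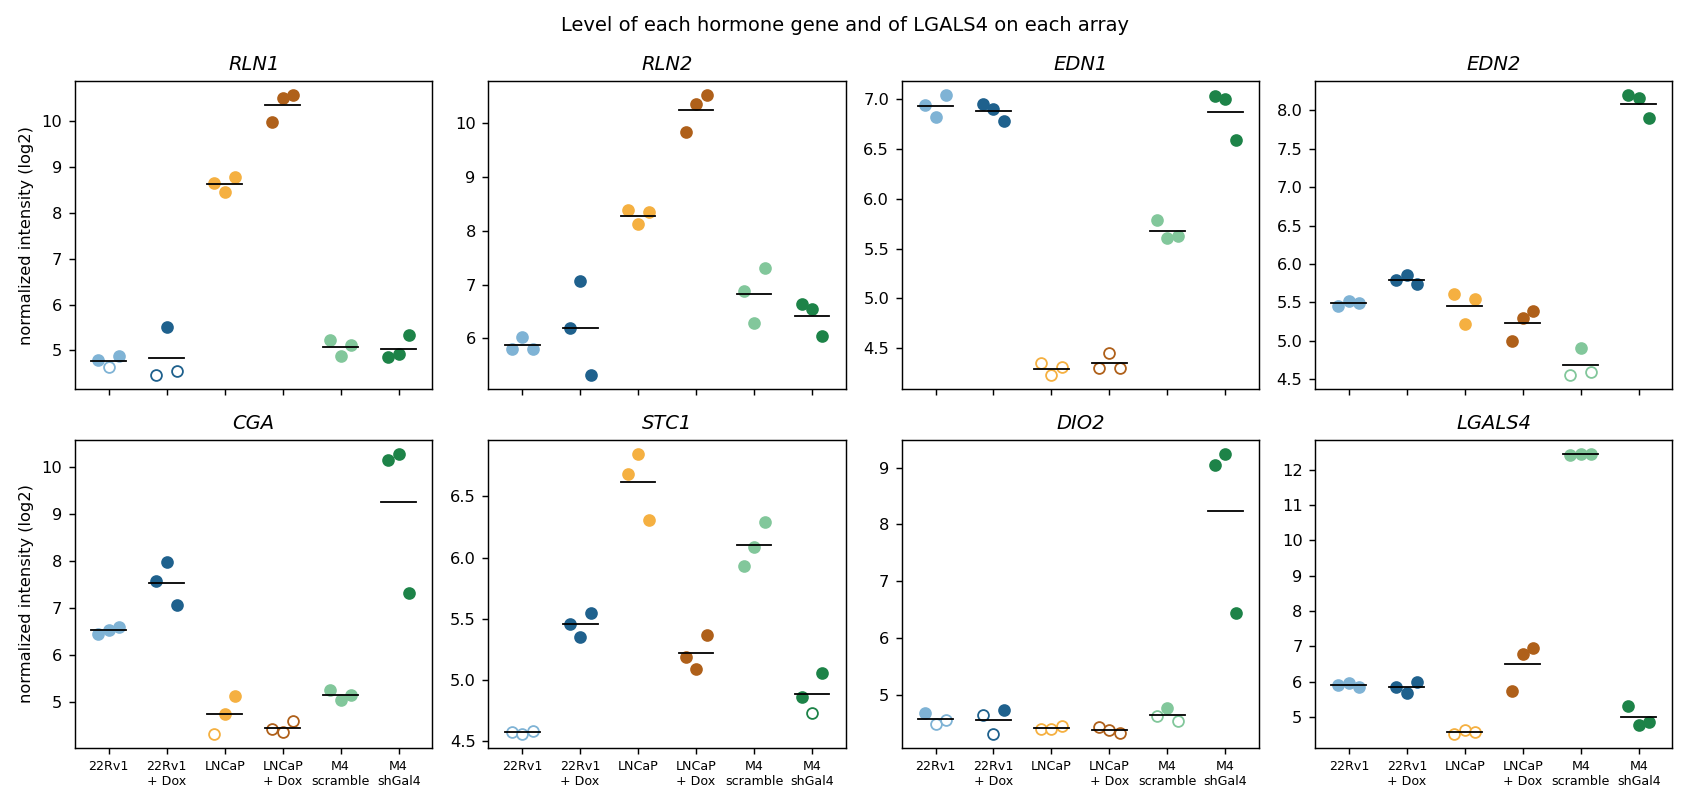
Normalized intensity (log2) of the 7 hormone genes and LGALS4 on each of the 18 arrays, 3 for each of the 6 groups on the horizontal axis; filled points are above background (detection p under 0.05), open points are not, and bars are group means. The vertical axis differs between panels and does not compare genes: RLN1 and RLN2 are highest in LNCaP with Dox, EDN2, CGA and DIO2 in the knockdown, and STC1 in LNCaP without Dox.

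RLN1 and RLN2 encode the relaxins H1 and H2 and lie beside each other on chromosome 9, on the same strand, with annotated spans that overlap. Their start regions are close copies, which is why both are shown, from RefSeq windows of GRCh38.p14 that reach from 250 bases before to 50 bases after the transcript start. The RLN1 window is chr9:5339827-5340126 and the most similar of the pair of RLN2 windows is chr9:5304667-5304966, both on the minus strand. Of 292 aligned bases, 268 are identical (91.8%). Capitals mark the bases that differ between the windows or lie opposite a gap inside the alignment.
RLN1: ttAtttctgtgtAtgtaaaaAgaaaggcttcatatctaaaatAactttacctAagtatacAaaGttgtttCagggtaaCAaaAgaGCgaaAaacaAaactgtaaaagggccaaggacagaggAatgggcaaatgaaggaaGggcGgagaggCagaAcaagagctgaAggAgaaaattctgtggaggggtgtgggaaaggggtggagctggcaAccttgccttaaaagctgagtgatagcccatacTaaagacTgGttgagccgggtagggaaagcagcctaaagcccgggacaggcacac
RLN2: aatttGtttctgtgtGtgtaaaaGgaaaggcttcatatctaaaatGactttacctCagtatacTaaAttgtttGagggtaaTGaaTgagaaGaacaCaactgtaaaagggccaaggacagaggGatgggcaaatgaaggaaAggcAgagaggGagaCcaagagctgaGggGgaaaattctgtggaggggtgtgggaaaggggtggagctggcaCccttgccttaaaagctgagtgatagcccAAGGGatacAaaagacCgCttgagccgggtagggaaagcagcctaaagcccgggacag

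Both relaxin genes were highest in LNCaP, and higher there with Dox than without. RLN1 lay at 8.66, 8.45 and 8.79 in LNCaP without Dox and at 9.99, 10.51 and 10.57 with Dox. The groups did not overlap, and the log2 difference was 1.72 ± 0.22 (SE), a 3.31-fold change. In 22Rv1 and 22Rv1-M4 the RLN1 probe never passed 5.51, and neighbours in the order of its 4 group means there overlapped (4.77 to 5.07, above background on 9 of 12 arrays). LNCaP without Dox exceeded 22Rv1 without Dox by 3.86 ± 0.22.

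RLN2 gave a similar order with more spread. Its brighter probe, annotated to NM_005059, lay at 8.38, 8.12 and 8.35 in LNCaP without Dox and at 9.84, 10.36 and 10.53 with Dox. The difference was 1.96 ± 0.30 (SE), or 3.89-fold, with no overlap. The other probe, annotated to NM_134441, read 6.78, 6.58 and 6.69 without Dox and 7.74, 7.96 and 8.30 with it, a smaller difference of 1.31 ± 0.20. Against 22Rv1 without Dox, LNCaP was higher by 2.41 ± 0.30 on the first probe and by 1.30 ± 0.20 on the second. RLN1 and RLN2 are close paralogs and the probe sequences were not used here, so how well each probe tells them apart is uncertain.

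On the arrays labelled 22Rv1 with Dox, the brighter RLN2 probe had an SD of 0.88, against 0.13 to 0.51 in the other groups. It read 6.19, 7.06 and 5.31, against 5.80, 6.02 and 5.79 without Dox. The arrays with Dox lay on both sides of the controls, and the difference did not pass the test (0.32 ± 0.30, adjusted p = 0.494). Without replicate 3 of that group it did (0.76, adjusted p = 0.0377), and over 17 alternatives the adjusted p ran from 0.0377 to 0.827. Without replicate 2 the difference was -0.12, and -0.14 with the axis score described next. The NM_134441 probe read 6.26, 6.44 and 5.30 against 5.35, 5.44 and 5.38 and did pass (0.61 ± 0.20, adjusted p = 0.034), with groups that overlapped. That call was lost in all 5 alternatives run for this probe, with adjusted p of 0.0628 to 0.104. RLN1 differed by 0.07 ± 0.22 (adjusted p = 0.853).

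The scatter of RLN2 followed a variation between arrays that the groups do not explain. The leading axis of the deviations from the group means held 24.8% of that variation. The sign of the axis was set so that the weight of RLN2 is positive, and RLN2 had the 4th most positive weight among 13680 genes. Across 18 arrays the deviations of RLN2 correlated with the axis at r = 0.93 (0.77 for its second probe and 0.48 for RLN1), as a description over points of which RLN2 itself is a part. On the arrays labelled 22Rv1 with Dox, axis scores were -2.58, 18.2 and -30.3, in the same order as RLN2. LNCaP with Dox had scores of 24.5 to 26.7 and LNCaP without Dox of -14.5 to -3.35, so the axis moves with this comparison too. With the axis score in the model, the LNCaP Dox difference was 0.83 ± 0.20 for RLN2, 0.74 ± 0.20 for its second probe and 1.33 ± 0.27 for RLN1. What the axis stands for was not tested.

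**Figure D2:**
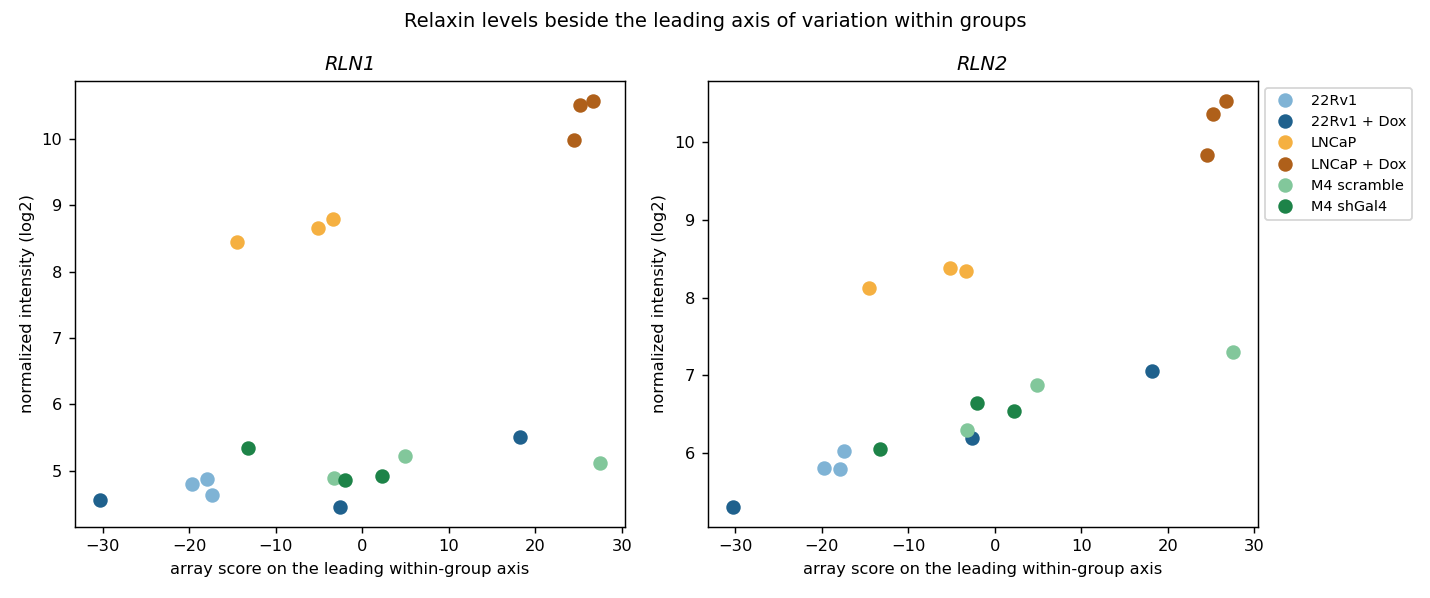
Normalized intensity (log2) of RLN1 (left) and RLN2 (right) on the vertical axis against each array's score on the leading axis of variation within groups; each point is 1 of 18 arrays, coloured by group. RLN2 climbs with the score inside 22Rv1 with Dox, from 5.31 to 7.06, while LNCaP arrays lie above the others at the same score.

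The relaxin neighbourhood was measured only in part. INSL6 and INSL4, the nearest named genes on one side, and CD274, next but one on the other side, were above background on no array. PLGRKT, a plasminogen receptor gene, was the first named gene past RLN1 on that side. It was also higher with Dox in LNCaP, by 1.24 ± 0.20 (adjusted p = 0.000233), where 27.8% of all genes were called. Levels were 11.53, 11.59 and 11.86 against 10.44, 10.46 and 10.34. On the arrays labelled 22Rv1 with Dox PLGRKT read 9.86, 10.22 and 9.30, in the same order as the axis scores. Its LNCaP difference was not fitted with the axis score. Of the other relaxin-family genes and receptors, RXFP1, RXFP2, RXFP3, RXFP4 and RLN3 were above background on no array. INSL5 was the 1 gene of 9 on that list that could be tested, and it was higher in LNCaP than in 22Rv1 by 0.60 ± 0.23 (adjusted p = 0.0313), where 50.3% of all genes were called, with arrays that overlapped. That call was lost in 9 of 17 alternatives, among them without LNCaP replicate 2 (0.22, adjusted p = 0.323), 22Rv1 replicate 1 (0.58, adjusted p = 0.0764) or 22Rv1 replicate 3 (0.55, adjusted p = 0.0915).

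The knockdown of LGALS4 in 22Rv1-M4 left the relaxin probes at similar levels: RLN1 differed by -0.03 ± 0.22 and RLN2 by -0.41 ± 0.30 (0.07 with the axis score), and the arrays overlapped for both. M4-shCtrl exceeded 22Rv1 without Dox by 0.95 ± 0.30 for RLN2, at 6.87, 6.29 and 7.30. That difference was -0.01 ± 0.18 with the axis score in the model, and the axis scores of M4-shCtrl ran from -3.21 to 27.5 against -19.7 to -17.4 in 22Rv1.

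Both endothelin genes were higher in the knockdown, EDN2 by far the more. EDN2 lay at 4.55, 4.90 and 4.59 with the scramble, where 1 of 3 arrays was above background, and at 8.20, 8.16 and 7.90 with the knockdown. The difference was 3.40 ± 0.14 (SE), or 10.6-fold over a level mostly not above background, and no other group came near: the remaining 4 groups had means of 5.23 to 5.79. EDN1 lay at 5.79, 5.61 and 5.63 with the scramble and at 7.03, 7.00 and 6.59 with the knockdown, a difference of 1.20 ± 0.13 (2.29-fold) without overlap.

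EDN1 in the knockdown overlapped its level in 22Rv1, whereas EDN2 lay above it. EDN1 read 6.94, 6.82 and 7.04 in 22Rv1 without Dox and 6.95, 6.90 and 6.78 with Dox, and the knockdown arrays overlapped both. M4-shCtrl lay below 22Rv1 without Dox by 1.25 on the log2 scale (-1.25 ± 0.13) for EDN1 and by 0.81 (-0.81 ± 0.14) for EDN2. In LNCaP, EDN1 was not above background on any of the 6 arrays and was at least 4.62-fold lower than in 22Rv1, while EDN2 was above background on all 6 LNCaP arrays, at 5.46 ± 0.21 (SD, n = 3) without Dox and 5.23 ± 0.21 with it.

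On the arrays labelled 22Rv1 with Dox neither endothelin gene passed the test. EDN1 differed by -0.05 ± 0.13 (adjusted p = 0.806). EDN2 read 5.79, 5.85 and 5.74 against 5.45, 5.52 and 5.49, so every array with Dox was above every control, but the difference was small (0.30 ± 0.14, adjusted p = 0.131). It passed when arrays were weighted by their quality (0.30 ± 0.10, adjusted p = 0.0209), the lowest of a range that reached 0.451 over 17 alternatives.

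The rest of the endothelin system was measured only in part. ECE1, the converting enzyme, and EDN3 were above background on no array, and EDNRA has no named probe here. EDNRB, the receptor that also clears endothelin, was above background on 17 of 18 arrays and was called in none of the 5 comparisons (differences of -0.34 to 0.17, adjusted p of 0.0807 to 0.725), though array weights gave an adjusted p of 0.00308 for 22Rv1 Dox (-0.41) and 0.00606 for M4-shCtrl against 22Rv1. The gene of that list that changed was MME, neprilysin, a membrane peptidase that degrades endothelins. It fell by 1.51 in the knockdown (-1.51 ± 0.15, adjusted p = 1.46e-07) and by 1.77 on the arrays labelled 22Rv1 with Dox (-1.77 ± 0.15, adjusted p = 1.86e-08). It made 1 of 3 list genes tested in each, where 23.3% and 24.8% of all genes were called. FURIN, a protease that cuts endothelin precursors, fell by 0.66 on the arrays labelled 22Rv1 with Dox (-0.66 ± 0.17, adjusted p = 0.00584) and was not called in the knockdown (0.21 ± 0.17, adjusted p = 0.398, and 0.034 with array weights).

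CGA, the shared alpha subunit, had the largest difference of the 7 genes in the knockdown, with the widest spread. It lay at 5.25, 5.04 and 5.14 with the scramble and at 10.14, 10.28 and 7.31 with the knockdown. All 3 knockdown arrays were above all scramble arrays, but replicate 3 was far below the other pair. The difference was 4.10 ± 0.47 (SE), or 17.2-fold, with an SD of 1.68 in the knockdown group. Without that array it was 5.07 ± 0.22.

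DIO2 showed the same split. It read 4.63, 4.76 and 4.53 with the scramble and 9.04, 9.25 and 6.43 with the knockdown, where 1 of 3 scramble arrays and 3 of 3 knockdown arrays were above background. The difference was 3.60 ± 0.42 (12.1-fold over a level mostly not above background), or 4.51 ± 0.14 without replicate 3. In the other 5 groups it stayed at 4.38 to 4.64 on average and was above background on 3 of 15 arrays. The second DIO2 probe, annotated to NM_013989, was above background on 1 of 18 arrays, so the whole difference rests on the probe annotated to NM_001007023.

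Among 13680 genes, CGA had the largest gap on M4-shGal4 replicate 3 below the lower of the other pair (2.83) and DIO2 the 4th largest (2.61). PDE4B, a phosphodiesterase that degrades cyclic AMP, ranked 13th (1.77). It was looked up as a gene of the cyclic AMP list below, and the other genes of similar rank are not named here. Its scramble level was low (4.25, 4.74 and 4.96, above background on 2 of 3 arrays). On M4-shGal4 replicate 3, 44 genes lay at least 2-fold below both others. LGALS4 on that array was at 4.87, between the other pair. The gap of EDN1 was 0.41 and that of EDN2 0.27. Over the 18 arrays, deviations from group means of CGA and DIO2 correlated at r = 0.89, with this array among the points.

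**Figure D3:**
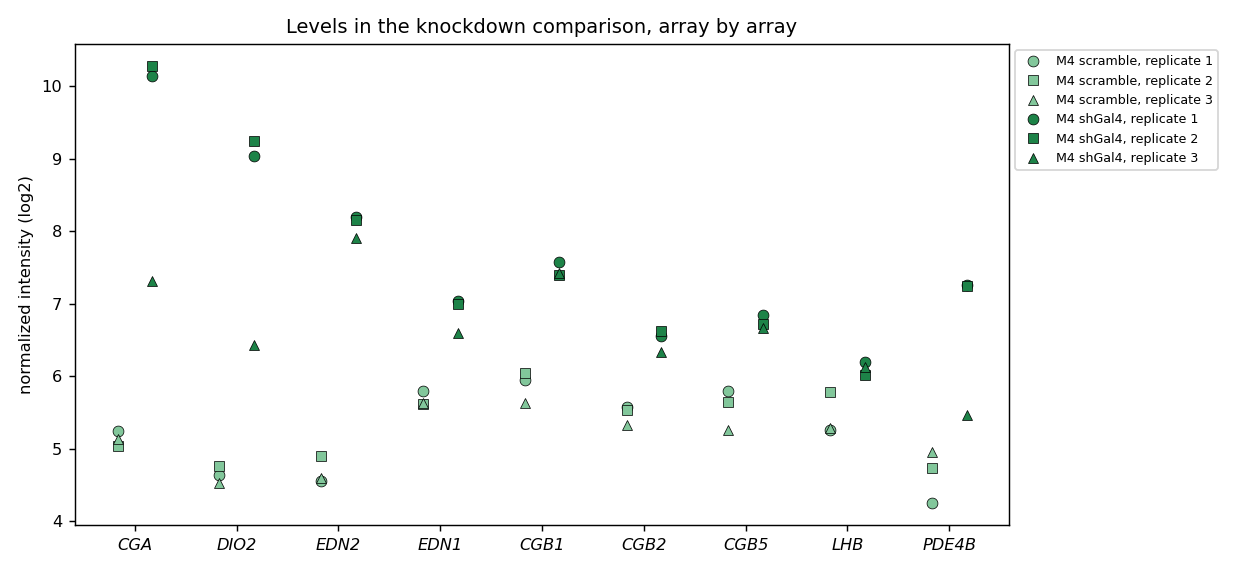
Normalized intensity (log2) of 4 of the hormone genes, 4 beta subunit genes and PDE4B on each array of M4-shCtrl (light) and M4-shGal4 (dark), with a marker shape for each replicate. Replicate 3 of the knockdown (dark triangle) lies well below the other pair for CGA (7.31), DIO2 (6.43) and PDE4B (5.47) and close to them for CGB1 and CGB5.

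The start regions of CGA and DIO2 are shown because both hold the palindrome TGACGTCA, the consensus cyclic AMP response element, which CREB binds. CGA has 1 window, chr6:87095057-87095356, and DIO2 has 2, of which the one shown is chr14:80212129-80212428, both on the minus strand of GRCh38.p14 and 300 bases long, from RefSeq. Capitals mark TGACGTCA.
CGA: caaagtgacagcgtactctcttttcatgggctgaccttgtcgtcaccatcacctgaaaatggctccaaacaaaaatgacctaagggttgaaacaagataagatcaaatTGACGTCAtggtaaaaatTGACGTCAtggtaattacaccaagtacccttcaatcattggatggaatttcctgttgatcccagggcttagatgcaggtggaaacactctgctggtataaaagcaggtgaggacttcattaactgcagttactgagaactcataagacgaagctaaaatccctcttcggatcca
DIO2: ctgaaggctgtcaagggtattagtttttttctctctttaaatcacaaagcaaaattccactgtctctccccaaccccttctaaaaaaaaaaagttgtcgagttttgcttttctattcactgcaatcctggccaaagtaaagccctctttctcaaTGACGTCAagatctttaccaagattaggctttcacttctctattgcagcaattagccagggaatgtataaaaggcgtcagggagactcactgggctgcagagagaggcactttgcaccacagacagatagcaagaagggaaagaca
The motif occurs 2 times in the CGA window, starting at -142 and -124 from the transcript start, and 1 time in the DIO2 window, at -96. It was found in 1.85% of 35116 such windows and in at least 1 window of 3.68% of the 10801 tested genes that have one. The windows of RLN1, RLN2, EDN1 and EDN2 held none. The shorter motif TGACG, of which the palindrome holds a copy on each strand, was found in 24.6% of windows, among them 1 of 3 windows of EDN1. TATAAA was found in 11.5% of windows and begins at -29 in CGA, -31 in DIO2 and -31 in 1 EDN1 window. CACGTG (7.26% of windows) was in none of the 6 genes' windows, and ACGTG (21.4%) was in 1 window of RLN2 and 2 of EDN1. Both strands were searched, and these letters describe the sequence only: binding was not measured.

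Genes of a fixed list of cyclic AMP and CREB responsive genes went both ways in the knockdown. The list also holds genes of CREB itself and its partners, such as CREB1 and CRTC2, so it is not a list of targets only. Of 25 tested, 6 were higher and 3 lower, where 23.3% of all genes were called, and their median difference was -0.03 against 0.02 for all genes. PDE4B was higher by 2.01 ± 0.32 (adjusted p = 8.33e-05), the phosphatase gene DUSP1 by 1.17 ± 0.14 (adjusted p = 1.75e-06) and the phosphodiesterase gene PDE4D by 0.96 ± 0.24 (adjusted p = 0.00569). PPARGC1A, a coactivator gene of mitochondrial metabolism, fell by 2.15 (-2.15 ± 0.15, adjusted p = 6.73e-10).

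Beta subunit probes rose with CGA in the knockdown, less and more evenly. CGB1 was higher by 1.59 ± 0.13 (adjusted p = 1.48e-08), CGB5 by 1.17 ± 0.16 (adjusted p = 1.16e-05), CGB2 by 1.03 ± 0.13 (adjusted p = 5.66e-06) and LHB by 0.67 ± 0.16 (adjusted p = 0.0046, and 0.0929 with median scaling). CGB1 lay at 7.58, 7.40 and 7.42 against 5.95, 6.04 and 5.63, without the low replicate 3 of CGA. These 4 made all the calls among 7 tested genes of the glycoprotein hormone list, where 23.3% of all genes were called, and the median difference of the 7 was 0.67. CGB3 (0.02 ± 0.16, adjusted p = 0.945) and CGB8 (0.04 ± 0.13, adjusted p = 0.861) were not called. The CGB and LHB genes are near-identical copies, so their probes may share signal and need not be separate transcripts.

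The other parts of these hormone systems were mostly below background. TSHB was above background on no array, FSHB on 1, and the receptors TSHR, LHCGR and FSHR on none. Markers of placenta and pituitary were read beside CGA. The 14 trophoblast markers had 3 above background on all M4-shCtrl arrays (CGB5, CGB8 and GCM1) and 5 on all M4-shGal4 arrays (these, TFAP2C and KRT7). Summed levels were 350 to 376 and 468 to 507. TFAP2C was above background on no M4-shCtrl array and GATA3 on no M4-shGal4 array. PSG1, PSG3, CSH1, INSL4, CYP19A1 and HSD3B1 were above background on none of these arrays. Of the 10 pituitary markers, 3 (LHB, PITX1 and TBX19) were above background on all M4-shCtrl arrays and 2 (LHB and PITX1) on all M4-shGal4 arrays. Their summed levels were 583 to 654 and 531 to 590, and PRL, GH1, TSHB and POU1F1 were above background on none of these arrays. The trophoblast sum includes CGB5 and CGB8, and its part in the CGA result was not tested.

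CGA was expressed in 22Rv1 already without Dox. It read 6.45, 6.53 and 6.60 there and 7.56, 7.97 and 7.06 on the arrays labelled with Dox, above every control, a 2.01-fold difference that did not pass the test (1.01 ± 0.47, adjusted p = 0.124). The SE is the one shared by all groups and carries the spread of the knockdown. With array weights it passed (1.03 ± 0.28, adjusted p = 0.00406), as it did when only the arrays compared were fitted (adjusted p = 0.00664), and over 17 alternatives the adjusted p ran from 0.00406 to 0.351. M4-shCtrl was lower than 22Rv1 by 1.39 (-1.39 ± 0.47), and the knockdown arrays of CGA overlapped those of 22Rv1 with Dox. LNCaP was near background, at 4.32, 4.75 and 5.12 without Dox and at 4.42, 4.35 and 4.58 with it. For 22Rv1 Dox, CGB1 differed by -0.21 ± 0.13 (adjusted p = 0.273, and 0.00843 with array weights). CGB5 was the 1 called gene of 7 tested on the glycoprotein hormone list there, where 24.8% of all genes were called. It was lower by 0.48 (-0.48 ± 0.16, adjusted p = 0.0321), a call lost in 8 of 17 alternatives.

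Genes that handle thyroid hormone were read beside DIO2. Of 14 tested in the knockdown, 1 was higher and 2 lower, where 23.3% of all genes were called, and their median difference was -0.01. SECISBP2, needed to build selenoproteins such as DIO2, rose by 0.55 ± 0.13 (adjusted p = 0.00384, and 0.053 with median scaling), while SEPSECS, of the same machinery, fell by 0.49 (-0.49 ± 0.16, adjusted p = 0.0275), a call lost in 8 of 17 alternatives, among them without replicate 1 or 2 of M4-shCtrl (adjusted p = 0.0544 and 0.0954) or of M4-shGal4 (adjusted p = 0.0841 and 0.0781). TTR, the carrier transthyretin, fell by 0.70 (-0.70 ± 0.15, adjusted p = 0.00202). The receptor THRA was above background on all 18 arrays and was not called (0.14 ± 0.17, adjusted p = 0.595). THRB was above background on no array, DIO3 on 1 and DIO1 on 5. DIO2 on the arrays labelled 22Rv1 with Dox differed by -0.01 ± 0.42 (adjusted p = 0.994).

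STC1 was the 1 hormone gene with an adjusted p under 0.05 on the arrays labelled 22Rv1 with Dox, as were 24.8% of all genes. It was above background on no 22Rv1 array without Dox, at 4.57, 4.56 and 4.58, and on all 3 with Dox, at 5.46, 5.35 and 5.55. It was at least 1.7-fold higher (difference 0.88 ± 0.14, adjusted p = 0.000125), and higher in 3 of 3 arrays. The call held in 17 of 17 alternatives, with adjusted p from 1.79e-07 to 0.00648, though the difference was 0.25 on the authors' deposited log2 values, which carry no background correction. These refits use the same arrays, and STC1 was chosen with this result known, so they are no independent test.

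In LNCaP and in the knockdown STC1 went down. LNCaP arrays read 6.68, 6.85 and 6.31 without Dox and 5.19, 5.09 and 5.37 with it, a difference of -1.40 ± 0.14 (SE) without overlap. M4-shCtrl read 5.93, 6.09 and 6.29 and the knockdown 4.86, 4.73 and 5.06, a difference of -1.22 ± 0.14. The Dox difference in LNCaP minus that in 22Rv1 was -2.28 ± 0.20. STC1 was higher in LNCaP than in 22Rv1 (at least 3.8-fold, both without Dox) and in M4-shCtrl than in 22Rv1 (at least 2.67-fold).

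Its relative STC2 was expressed on all 18 arrays and partly followed. On the arrays labelled 22Rv1 with Dox it read 8.53, 8.27 and 8.75 against 7.08, 7.20 and 7.19 (1.36 ± 0.15, adjusted p = 8.21e-07). In LNCaP the Dox difference was -0.30 ± 0.15 (adjusted p = 0.132), and the Dox responses of the lines differed by -1.66 ± 0.21 (adjusted p = 1.06e-05), as those of 18.8% of all genes did. In the knockdown STC2 fell by 0.54 (-0.54 ± 0.15, adjusted p = 0.0106), or by 0.45 without M4-shGal4 replicate 1 (-0.45, adjusted p = 0.0664). With STC2 included, 4 of 5 tested genes of the calcium hormone list fell in the knockdown, where 23.3% of all genes were called, with a median of -0.76. The others were PTH2R, a parathyroid hormone receptor (at least 4.37-fold lower, adjusted p = 9.95e-09), CALCA, which encodes calcitonin and CGRP (-1.36 ± 0.14, adjusted p = 3.34e-07), and CALCB, which encodes a second CGRP (-0.76 ± 0.22, adjusted p = 0.0139). The call of CALCB was lost without M4-shCtrl replicate 3 (-0.58, adjusted p = 0.0774), without M4-shGal4 replicate 3 (-0.43, adjusted p = 0.103) and with only the arrays compared (adjusted p = 0.0757).

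Hypoxia-inducible genes, a list that STC1 was set beside, were mostly higher on the arrays labelled 22Rv1 with Dox. Of 17 tested, 15 were higher and 1 lower, where 24.8% of all genes were called. Their median difference was 1.01 against -0.06 for all genes. ANKRD37 rose by 3.08 ± 0.29 (adjusted p = 1.05e-07), BNIP3, a mitophagy gene, by 1.84 ± 0.12 (adjusted p = 6.12e-10) and VEGFA, the blood vessel growth factor, by 1.73 ± 0.17 (adjusted p = 2.16e-07). IGFBP3, a binding protein of insulin-like growth factors, fell by 2.70 (-2.70 ± 0.23, adjusted p = 2.94e-08). The list was drawn up with earlier results of these arrays known, so its count is no independent evidence.

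In LNCaP with Dox the same list had 1 gene higher and 7 lower, where 27.8% of all genes were called, with a median of -0.39 against -0.08. PFKFB4, a regulator of glycolysis, fell by 1.15 (-1.15 ± 0.18, adjusted p = 0.000208, and -0.69 and 0.0676 with the axis score), as did LOX, a collagen crosslinking enzyme (-1.15 ± 0.17, adjusted p = 0.000153). ANKRD37 rose by 0.97 ± 0.29 (adjusted p = 0.0155), a call lost without LNCaP replicate 2 (0.81, adjusted p = 0.0742) or LNCaP with Dox replicate 3 (0.93, adjusted p = 0.0547) and with the axis score (0.05, adjusted p = 0.953). In the knockdown 3 were higher and 4 lower, where 23.3% of all genes were called, with a median of -0.03 against 0.02. The 3 higher were IGFBP3 (0.71 ± 0.23, adjusted p = 0.0311), ANGPTL4 (0.65 ± 0.17, adjusted p = 0.00965) and CA12 (0.57 ± 0.19, adjusted p = 0.031). The call of IGFBP3 was lost in 9 of 17 alternatives. NDRG1, a stress-response gene, fell by 1.86 (-1.86 ± 0.20, adjusted p = 6.2e-07) and BNIP3 by 1.14 (-1.14 ± 0.12, adjusted p = 5.5e-07).

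**Figure D4:**
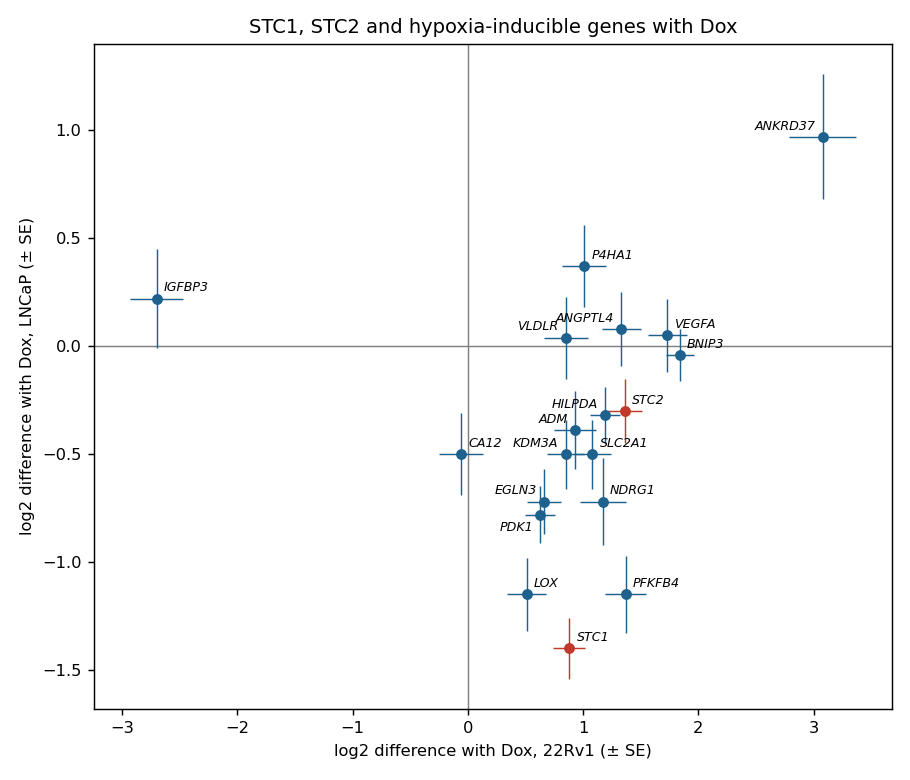
Log2 difference with Dox in 22Rv1 (horizontal axis) against that in LNCaP (vertical axis) for STC1, STC2 (red) and the 17 hypoxia-inducible genes tested (blue); bars are SE from the model of 18 arrays. STC1 lies lowest on the vertical axis (-1.40) and right of 0, and 15 of the list genes lie clearly right of 0.

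**Figure D5:**
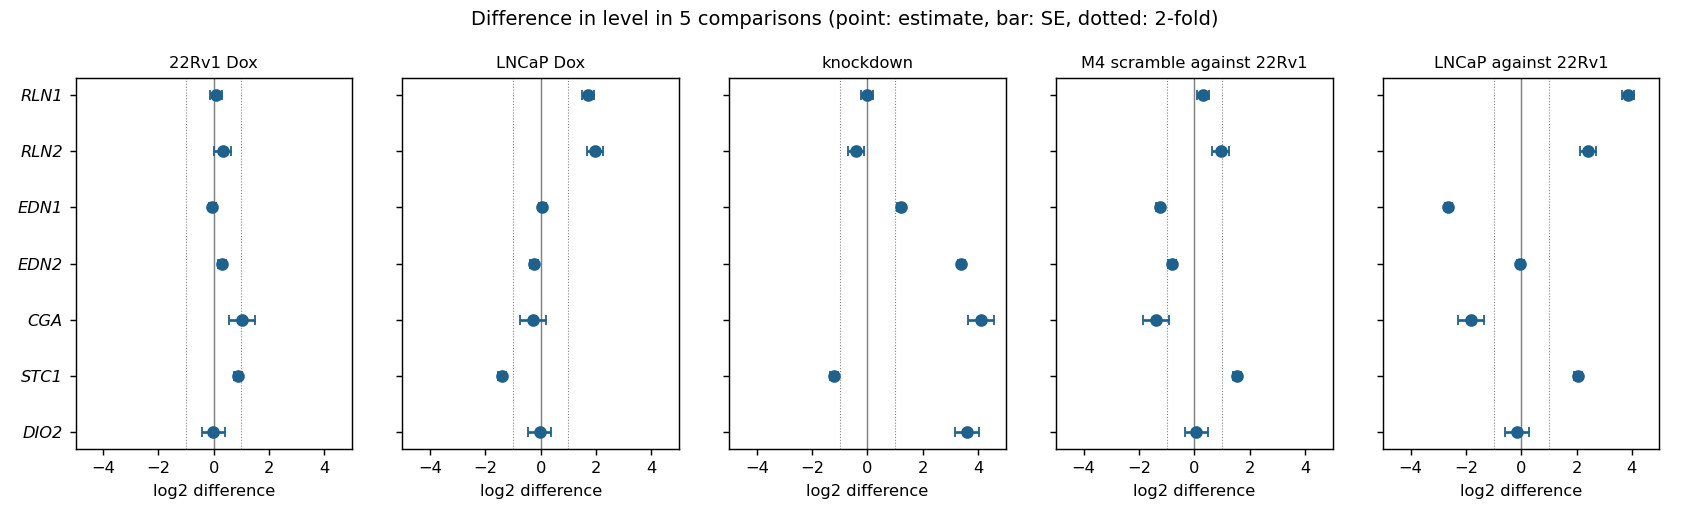
Log2 difference (point) and SE (bar) of the 7 hormone genes in 5 comparisons, with dotted lines at 2-fold. The relaxins differ with Dox in LNCaP, EDN1, EDN2, CGA and DIO2 are higher and STC1 lower in the knockdown, and the arrays labelled 22Rv1 with Dox show smaller differences, the largest being CGA (1.01).

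The lines were also compared without Dox. LNCaP had more RLN1, RLN2 and STC1 than 22Rv1 and less EDN1 and CGA (-1.80 ± 0.47), with EDN2 within its spread (-0.03 ± 0.14) and DIO2 near background in both. M4-shCtrl had more STC1 than 22Rv1 and less EDN1 and CGA. Of 7 tested genes of the glycoprotein hormone list, 4 were lower in LNCaP and 3 lower in M4-shCtrl than in 22Rv1, where 50.3% and 35.4% of all genes were called. Of these 3, LHB lost its call without 22Rv1 replicate 2 (adjusted p = 0.125), M4-shCtrl replicate 1 (0.076) or M4-shCtrl replicate 3 (0.0683), and CGB5 without M4-shCtrl replicate 3 (0.0558). CGB1, for one, was above background on no LNCaP array without Dox and at least 4.4-fold lower there (adjusted p = 8.14e-12).

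Each gene's pattern over the 6 group means was set beside that of 5783 genes that vary by at least 1 on the log2 scale. Likeness is given as Pearson's r over 6 group means and over 18 arrays, as a description of few points that share groups and normalization. RLN1 was most like ALDH1A3 (r = 0.999 and 0.984), TRIM49C (0.999 and 0.985) and KCNU1 (0.998 and 0.974). RLN2 was most like SRP19 (0.999 and 0.978), RNF4BP (0.996 and 0.973) and H2BC8 (0.995 and 0.959), none of them among the 3 named for RLN1.

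For the endothelins and CGA the nearest patterns were as follows. EDN1 was most like FUBP3 (0.998 and 0.955), ASIC3 (0.996 and 0.978) and ITGB5 (0.995 and 0.982). EDN2 was most like C11orf52 (0.984 and 0.964), BIK (0.971 and 0.895) and HPD (0.966 and 0.953). CGA was most like FOXD4L3 (0.985 and 0.916), TMEM107 (0.984 and 0.888) and SFXN3 (0.981 and 0.859). DIO2 had EPB41L3 (0.999 and 0.869), JPT1 (0.995 and 0.867) and NKX2-2 (0.994 and 0.875). STC1 had the least close neighbours: SOX4 (0.972 and 0.828), RRBP1 (0.968 and 0.914) and ZNF542P (0.951 and 0.637).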

How the data were processed

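RNA was measured on 18 bead arrays, 3 in each of 6 groups taken from the labels. The authors deposited probe intensities on a linear scale, not background-subtracted (lowest value per array 83.7 to 90.9), with a detection p-value per probe and array, and a log2 matrix. Of the 851454 deposited log2 values all but 114 lay within 0.01 of quantile-normalized log2 intensities without background correction. The scanner and its software are not stated in the labels or headers.

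Intensities were corrected and normalized with neqc (limma 3.58.1, R 4.3.3, statmod 1.5.0), with a normexp background inferred from detection p-values and an offset of 16. This shrinks fold changes of dim probes. Of 47303 probes, 30103 carried 1 gene symbol, 8 several and 17192 none, and the last 2 kinds were not analysed. Names come from the probe table and were looked up by Entrez ID in a RefSeq table for 30064 probes. Each gene was represented by its brightest probe on average, among probes detected (p-value below 0.05) on 3 or more arrays (13680 genes). The second RLN2 probe was tested in a separate fit of all 18408 kept probes, with p-values adjusted over those probes. The second DIO2 probe did not pass the detection filter and was not tested.

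All arrays entered 1 limma model of the 6 group means (12 residual and 8.726 prior degrees of freedom), two-sided, Benjamini-Hochberg adjusted over all genes, called under 0.05. Pairing by replicate number was checked from deviations from group means (r of -0.11 to 0.11 for same-numbered arrays). The r were weak and the main model has no pairing, but this check cannot exclude that same-numbered arrays were processed together. A fold against a group above background on 0 of 3 arrays is a lower bound. The members and lists were chosen with earlier results of these data known. Named genes are the 7, their receptors, enzymes and partner subunits, up to 4 called genes per list and comparison by size, 3 genes most alike, and the nearest neighbours of the relaxin genes. Of the 7 genes, 6 have a RefSeq start-region window here. STC1 is named only. Alternatives were no background correction, the deposited log2 values, median scaling, an offset of 50, no or a stricter detection filter, the mean of a gene's probes, arrays of 1 comparison only, array weights, the axis score, a replicate block and leaving out each array. The limma steps were tested on simulated data. The number of arrays limits the precision.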

Additional observations from a re-analysis of the deposited data

Results flagged for a closer look

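The responses to Dox differed between LNCaP and 22Rv1 for several of the genes described, and a value below is the log2 difference in LNCaP minus that in 22Rv1. For STC1 (-2.28 ± 0.20), CGA (-1.29 ± 0.66) and EDN2 (-0.53 ± 0.20) every array with Dox lay above its control mean in 22Rv1 and below it in LNCaP. The LNCaP groups overlapped for CGA (-0.28 ± 0.47, no array with Dox above background) and for EDN2 (-0.23 ± 0.14). Since these genes were chosen with these results known, the difference was not tested. LGALS4 itself differed by 1.98 (adjusted p = 0.000111).

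Of 35 genes of the fixed lists that were named for a Dox response, the response of 27 differed between the lines at an adjusted p under 0.05, as did 18.8% of all genes. The 35 had been named for large responses in either line, which favours a difference, so nothing is read from that count. Among hypoxia-inducible genes the response in LNCaP was lower for PFKFB4 (-2.53), ANKRD37 (-2.10), BNIP3 (-1.88), VEGFA (-1.67), LOX (-1.66), PDK1 (-1.41) and ADM (-1.32) and higher for IGFBP3 (2.92). Among calcium and thyroid hormone genes it was lower for STC2 (-1.66), PTH1R (-1.33), EEFSEC (-1.30) and SLC16A10 (-1.28) and higher for TTR (1.41). Among cyclic AMP genes it was lower for AKAP12 (-2.27), CREB1 (-1.47) and DUSP1 (-0.82) and higher for CREM (0.86).

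Among secreted peptides, their processing and their breakdown it was lower for LEP (-2.63 ± 0.49), NMU (-1.37), SCG5 (-1.34) and PAM (-1.25). It was higher for MME (1.78), CHGB (1.76), GCG (1.74), SCG3 (1.24), APLN (1.07) and NUCB2 (0.99). CHGB, SCG3 and SCG5 were above background on no LNCaP array with or without Dox, so their values rest on the change in 22Rv1. For LEP the LNCaP groups overlapped, and its LNCaP Dox difference was not called (-0.83 ± 0.34, adjusted p = 0.0753). For list genes, these differences between the lines were not refitted under the alternatives. The probe for LGALS4 itself did not rise on the arrays labelled 22Rv1 with Dox, and the causes of these differences were not tested.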

How the results depend on the processing

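Counts of the 7 genes past 2-fold depended on how dim probes were treated. Without background correction, and equally on the authors' deposited log2 values, they were 0 for 22Rv1 Dox (1 as reported), 3 for the knockdown (5), 0 for M4-shCtrl against 22Rv1 (3), 3 for LNCaP against 22Rv1 (5) and 2 for the difference between Dox responses (4). An offset of 50 gave 0, 3 and 0 for the first 3 of these, and both median scaling and the axis score gave 0 for 22Rv1 Dox. The number called in 22Rv1 Dox was 1, and 3 with array weights or 2 with only the arrays compared. Leaving out 1 array gave 1 to 2 called and 0 to 1 past 2-fold in 22Rv1 Dox, and 3 to 4 past 2-fold in M4-shCtrl against 22Rv1. RLN2 in M4-shCtrl against 22Rv1 (0.95 as reported) was -0.01 with the axis score, and 10 smaller uncalled differences of the 7 genes, of 0.41 or less in size, changed sign under at least 1 alternative. Of the list genes, 27 were called in LNCaP Dox, but 16 with median scaling and 5 with the axis score. Leaving out 1 array left 19 to 25. For M4-shCtrl against 22Rv1 52 were called, but 32 with the axis score. Over all genes, 3394 were called in 22Rv1 Dox but 6582 with array weights, 3809 in LNCaP Dox but 2213 with median scaling and 243 with the axis score, 3193 in the knockdown but 1926 with median scaling and 4921 with array weights, and 4849 in M4-shCtrl against 22Rv1 but 2558 with the axis score. Median scaling moved the share of calls that were higher from 55.7% to 34.9% in the knockdown, from 36.8% to 25.3% in 22Rv1 Dox and from 47.1% to 34.2% in LNCaP against 22Rv1, and shifted the median of all genes to -0.15, -0.11 and -0.12 in 22Rv1 Dox, LNCaP Dox and LNCaP against 22Rv1. The causes were not tested. Of 2807 repeats for 166 named list gene results, 125 lost the call, 14 gained it and 0 changed sign while called.

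Same-numbered arrays were only weakly correlated, so pairing by replicate number was fitted as an alternative only. With the replicate block, the 22Rv1 Dox count stayed at 1 called, and counts past 2-fold were 1, 3, 5, 3 and 5 for the 5 comparisons and 4 for the difference between Dox responses. List genes called with the block were 43, 26, 42, 51 and 72, against 46, 27, 42, 52 and 74.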

Other observations

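Other hormone genes were read in the knockdown too, where 23.3% of all genes were called. Of 26 tested genes for secreted peptide hormones outside the 7, 5 were higher and 3 lower in the knockdown, with a median of 0.03 against 0.02 for all genes. NPY, which encodes neuropeptide Y, rose by 2.62 ± 0.26 (SE, adjusted p = 1.75e-07) and UCN, which encodes urocortin, by 0.97 ± 0.20 (adjusted p = 0.00101). AGT, the precursor of angiotensin, was above background on no knockdown array and at least 2.5-fold lower (adjusted p = 7.48e-08). Of 15 tested genes of the prohormone processing and secretion list, which also holds SECISBP2L, a relative of SECISBP2, 5 were higher and 1 lower. CHGB, a granin of secretory granules, rose by 1.58 ± 0.18 (adjusted p = 9.08e-07), and CPE, a prohormone carboxypeptidase, by 1.25 ± 0.20 (adjusted p = 8.58e-05). SCG5 was above background on no knockdown array and at least 1.45-fold lower (adjusted p = 0.000182).

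Some peptide genes were also called with Dox. On the arrays labelled 22Rv1 with Dox, LEP, which encodes leptin, rose by 1.79 ± 0.34 (adjusted p = 0.000603) and NMU, neuromedin U, by 1.21 ± 0.23 (adjusted p = 0.000498), while APLN, apelin, fell by 1.28 (-1.28 ± 0.14, adjusted p = 1.21e-06). There CHGB fell by 1.76 (-1.76 ± 0.18, adjusted p = 3.33e-07) and SCG3 by 1.19 (-1.19 ± 0.15, adjusted p = 7.71e-06). In LNCaP with Dox, GCG, the glucagon gene, rose by 1.05 ± 0.14 (adjusted p = 4.19e-05) and NUCB2, which encodes nesfatin, by 0.94 ± 0.18 (adjusted p = 0.00119), while GDF15 fell by 0.73 (-0.73 ± 0.17, adjusted p = 0.00308), a response that did not differ from that in 22Rv1 by the test (-0.38 ± 0.23, adjusted p = 0.283). With the axis score NUCB2 (0.40, adjusted p = 0.247) and GDF15 (-0.87, adjusted p = 0.0503) were not called.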
